A study of Mus musculus with 145 samples.

Results

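Among the single cells collected during the reprogramming of mouse spermatogonial stem cells (SSCs), the authors' annotation named 2 clusters after fibroblasts, Fibroblast 2 with 39 cells and Fibroblast 1 with 182 cells, out of 4464 annotated cells. The cells of Fibroblast 2 are described here against those of Fibroblast 1, taken by their annotated cluster name. The cultures were started from SSCs of neonatal males of the cross C57BL/6 female by DBA male (DBA/2 in the study's methods), carrying an Oct4-EGFP or EGFP transgene, and the labels give no treatment for the libraries used here. The cells grew on fibronectin with mitomycin C-inactivated mouse embryonic fibroblasts as feeder cells, and the annotation has no mark that would tell feeder cells from cells derived from SSCs, so the origin of a stromal cell cannot be told apart here. By the study's methods, colonies were selected and digested and single cells were then transferred by mouth pipette. Transcripts were measured by modified STRT-seq, in which cells are barcoded on plates and every cDNA carries a random tag, the unique molecular identifier (UMI), that lets amplified copies be counted once. Levels are given as CPM, the UMIs of a gene scaled to a common total per sum.

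Both clusters were present together in enough cells in only 2 libraries, which are the replicates of the comparison. The library of day 8 (replicate 1) held 20 cells of Fibroblast 2 and 66 of Fibroblast 1 among 87 cells, and that of day 10 (replicate 1) held 8 and 30 among 93. Fibroblast 2 thus made up 22.99% of the day 8 cells (95% exact binomial interval 14.6 to 33.2) and 8.60% of the day 10 cells (3.79 to 16.2), intervals that cover counting error only. The other cells of Fibroblast 2 were 6 in day 27 replicate 5, 2 in day 14 replicate 5, and 1 each in day 14 replicate 2, day 16 replicate 3 and day 20 replicate 9. Fibroblast 1 had 57 cells in day 14 replicate 2, 24 in day 14 replicate 4 and 5 cells in 3 further libraries. UMIs were summed per library and cluster, which gave 3714715 UMIs for Fibroblast 2 and 17927546 for Fibroblast 1 on day 8, and 1880269 and 9096578 on day 10. Cells of Fibroblast 2 were shallower, with a median of 180982 UMIs against 282934 on day 8 and 231690 against 290108 on day 10.

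Fibroblasts of connective tissue secrete the fibrillar collagens, fibronectin and proteoglycans of the extracellular matrix, carry receptors such as those for platelet-derived growth factor, and send ligands to neighbouring cells. SSCs are germ cells and express RNA-binding proteins of the germ line, among them the helicase Ddx4 and the translational regulator Dazl, and the piRNA machinery that silences transposons. A transcriptome with collagen genes high and germ line genes low, or the reverse, therefore separates stromal from germ cell identity.

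The markers went with the name for Fibroblast 2, while Fibroblast 1 held germ cell transcripts at high levels and collagen transcripts at low ones. The study assigned names by marker genes in these same cells, among them Col12a1, Col5a2 and Ccn2 (here Ctgf) for fibroblasts. Its SSC markers were Zbtb16, Dazl and Dmrt1, so the levels of such genes are no independent test of the names. Col1a1, a chain of type I collagen (GRCm38, chr11:94936224-94953042, plus strand), was at 959 CPM in Fibroblast 2 and 74.0 in Fibroblast 1 on day 8, and at 775 and 80.2 on day 10. Col1a2, the other chain of type I collagen, was at 1128 and 56.5 on day 8 and at 775 and 83.1 on day 10. Col3a1, of type III collagen, was at 968 and 46.5 on day 8 and at 643 and 33.2 on day 10. All 3 collagen genes were thus 9.33-fold to 20.8-fold higher in Fibroblast 2 within each library, and the sums of at least 5 cells did not overlap between the clusters, though single cells did. Ddx4 (chr13:112598333-112652475, minus strand) was at 74.8 CPM in Fibroblast 2 and 464.5 in Fibroblast 1 on day 8, and at 35.1 and 392 on day 10. Dazl (chr17:50279395-50293636, minus strand) was at 220 and 797 on day 8 and at 101 and 845 on day 10. In Fibroblast 1 both germ cell genes were at about the level of the cells of the annotated clusters SSC1 to SSC4 of the day 10 library, where Ddx4 was at 404 and Dazl at 874. Set against the same SSC clusters on day 10, the summed level in Fibroblast 1 was higher for the fibrillar collagens (307 against 129.9 CPM) and the matrix glycoproteins and proteoglycans (597 against 402) and lower for the basement membrane genes (172 against 184) and the collagen processing enzymes (659 against 666). These are values of 1 library and were not tested. The germ cell levels go against the name Fibroblast 1, which is used here as a label only.

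**Figure D1:**
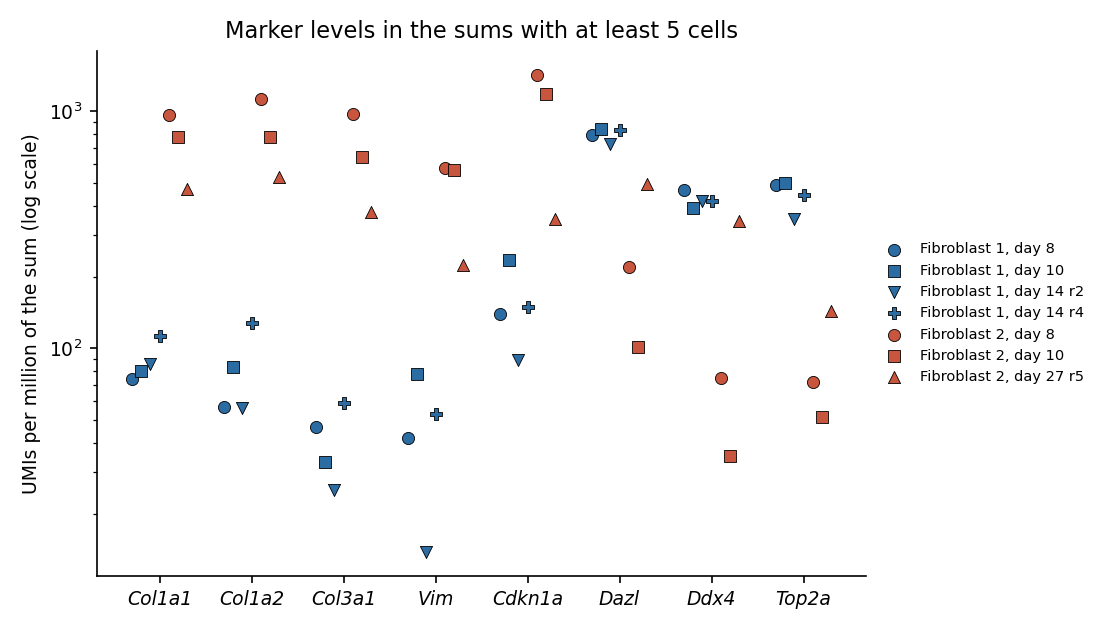
Levels of 8 genes, in CPM on a log scale, in the 7 sums of at least 5 cells; blue points are Fibroblast 1, red points Fibroblast 2, and the shape gives the library. For the 3 collagen genes, Vim and Cdkn1a every red point lies above every blue point, and for Ddx4, Dazl and Top2a every red point lies below every blue point, the day 27 sum of Fibroblast 2 being the closest for Ddx4 (345 against 392 to 464.5).

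The promoters of these genes differ in sequence, and those of 4 genes are shown as examples of the germ line genes (Ddx4 and Sycp1), the matrix genes (Col3a1) and the genes known as targets of the coactivator YAP (Cyr61, listed in RefSeq as Ccn1). Each is the 250 bases before the RefSeq start in GRCm38.p6, at chr13:112652311-112652560 on the minus strand for Ddx4, chr3:102936101-102936350 on the minus strand for Sycp1, chr1:45311288-45311537 on the plus strand for Col3a1 and chr3:145649986-145650235 on the minus strand for Ccn1. Capitals mark matches, on either strand, to the E-box CACGTG, the E2F motif GGCGGGAA, the TEAD motif GGAATG and TATAAA.
Ddx4: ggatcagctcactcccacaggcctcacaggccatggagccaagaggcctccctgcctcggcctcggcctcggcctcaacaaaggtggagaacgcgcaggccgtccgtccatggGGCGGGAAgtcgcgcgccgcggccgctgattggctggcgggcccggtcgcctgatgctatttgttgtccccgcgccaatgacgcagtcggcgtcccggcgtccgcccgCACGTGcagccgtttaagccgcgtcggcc
Sycp1: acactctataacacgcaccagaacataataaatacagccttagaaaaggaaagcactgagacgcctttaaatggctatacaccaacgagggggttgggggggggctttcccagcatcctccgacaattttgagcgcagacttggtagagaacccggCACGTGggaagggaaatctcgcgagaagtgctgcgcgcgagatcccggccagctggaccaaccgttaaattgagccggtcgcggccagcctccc
Col3a1: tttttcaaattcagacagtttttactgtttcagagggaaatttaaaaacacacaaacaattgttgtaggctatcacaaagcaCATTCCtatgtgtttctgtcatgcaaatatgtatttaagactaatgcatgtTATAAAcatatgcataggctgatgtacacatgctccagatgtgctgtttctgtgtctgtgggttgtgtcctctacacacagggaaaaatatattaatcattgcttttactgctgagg
Ccn1: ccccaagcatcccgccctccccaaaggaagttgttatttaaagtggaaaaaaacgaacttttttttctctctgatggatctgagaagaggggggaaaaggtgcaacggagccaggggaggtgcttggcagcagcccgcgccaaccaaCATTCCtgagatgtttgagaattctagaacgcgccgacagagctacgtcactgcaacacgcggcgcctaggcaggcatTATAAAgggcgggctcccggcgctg
The Ddx4 window had the E-box at position -29 and the E2F motif at -137, counted so that -1 is the last base before the start, and the Sycp1 window had the E-box at -94. Col3a1 had the TEAD motif, read on the opposite strand, at -168 and TATAAA at -117, and Ccn1 had them at -103 and -25. The Dazl window had none of the 4 motifs. The E-box was in 6 of 23 matched promoters of the germ cell RNA regulators and the piRNA pathway (26.1%), in 5 of 14 of the meiotic genes (35.7%) and in 1 of 22 of the fibrillar collagens and matrix glycoproteins (4.55%), beside 6.04% of all 25748 autosomal promoter windows. GGAATG was in 6 of 12 promoters of the YAP targets, and in 2 of 22 of the collagens and matrix genes (9.09%), beside 12.5% of all windows. The median number of CG dinucleotides per window was 15 for the germ cell RNA regulators and piRNA genes, 13 for the meiotic genes, 9 for the collagens and matrix genes (0 in the Col3a1 window) and 6 for all windows. These matches are descriptions of the reference sequence and no binding was measured.

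The same UMIs were also described cell by cell. This is no separate observation, since the clusters were drawn from these transcriptomes. The share of a cell's UMIs that came from 33 stromal genes (fibrillar collagens, matrix glycoproteins and proteoglycans) ran from 0.318% to 2.77% in the 39 cells of Fibroblast 2 and from 0.0204% to 0.319% in the 182 cells of Fibroblast 1, and 1 cell of Fibroblast 2 lay at or below the highest cell of Fibroblast 1. The share from 27 germ cell genes (germ cell RNA regulators and the piRNA pathway) was 0.366% to 0.746% in Fibroblast 1, and 34 of the 39 cells of Fibroblast 2 lay below that range. In the day 8 and day 10 libraries all 28 cells of Fibroblast 2 did so, with a median germ share of 0.0688% against 0.527% in Fibroblast 1. The median stromal share there was 1.28% against 0.0790%. After thinning to 50000 UMIs, which 27 of the 28 and 92 of the 96 cells reached, the medians were 0.068% against 0.536% for germ cell genes and 1.292% against 0.077% for stromal genes. Per cell, Col1a1 had 58 to 309 UMIs in the day 8 cells of Fibroblast 2 and 0 to 75 in those of Fibroblast 1, while Ddx4 had 0 to 108 and 6 to 225.

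The 5 cells of Fibroblast 2 whose germ share reached the range of Fibroblast 1 were 4 of the 6 cells of day 27 replicate 5 and the cell of day 16 replicate 3. They had germ shares of 0.450% to 0.592% and stromal shares of 0.318% to 0.552%, against 0.413% to 2.77% in the other 34 cells. Their median depth was 435833 UMIs and their median number of detected genes 9652, against 192580 UMIs and 7242 genes in the other 34. Whether more than 1 cell was picked in these wells was not tested. Because of these cells the day 27 sum of Fibroblast 2 carried both programmes, with Col1a1 at 468, Ddx4 at 345 and Dazl at 492 CPM.

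**Figure D2:**
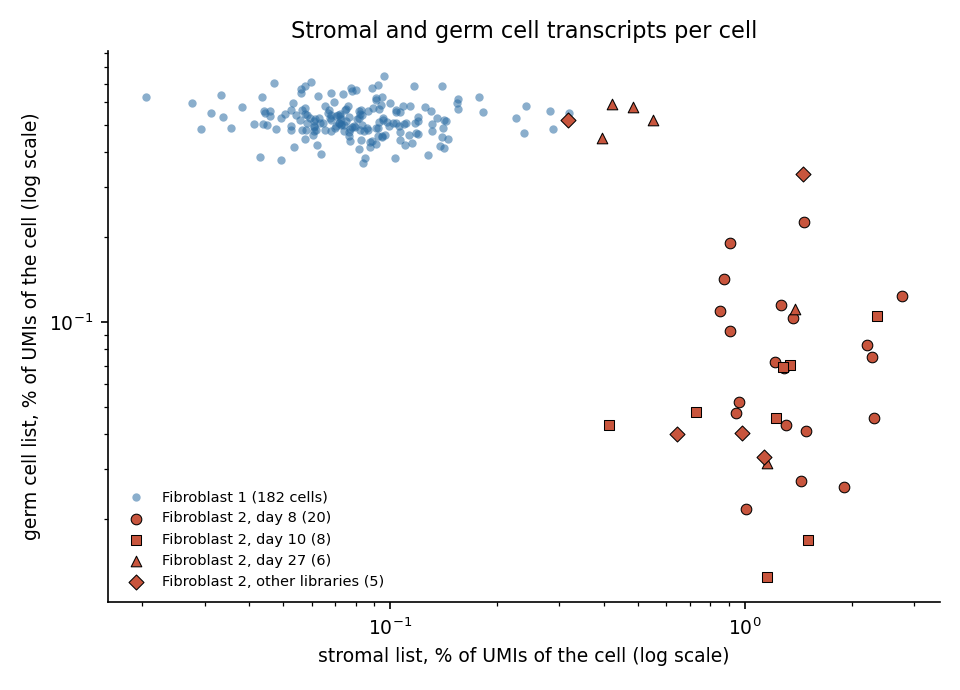
Each point is 1 cell, with the percent of its UMIs from the stromal list on the horizontal axis and from the germ cell list on the vertical axis, both on log scales; blue is Fibroblast 1 and red Fibroblast 2, with shapes for the library. The 28 red cells of day 8 and day 10 lie below the lowest blue cell (0.366%), and 4 red cells of day 27 lie within the blue range of germ shares.

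Across all genes the clusters were compared with edgeR's quasi-likelihood test on the 4 sums of day 8 and day 10, with the library as a block. Genes were called where the fold change reached 0.5 in natural log units, in either direction, with a p adjusted by Benjamini-Hochberg under 0.05, and those on autosomes are described. Since the authors drew the clusters from the same transcriptomes, the fit describes how the clusters differ and is no independent test that they do. Of 12544 autosomal genes tested, 1891 (15.1%) were called higher in Fibroblast 2 and 1931 (15.4%) lower, and 1889 and 1929 of them went the same way in both libraries. The median log2 fold change of all autosomal genes tested was -0.29, so that a gene with the change of a typical gene lies slightly below 0. With 2 libraries the block leaves 1 residual degree of freedom and the fitted spread is shared across genes, with no weight on a gene's own. The standard errors below rest on that shared spread too. Without the block the counts were 1711 and 1610, and with every sum of at least 5 cells and no block they were 1452 and 580. With an adjusted p under 0.01 and a natural-log fold change of at least 1 they were 1298 (10.3%) and 1038 (8.27%).

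The genes with the highest fold changes had 0 to 4 UMIs in the day 8 and day 10 sums of Fibroblast 1, to which the following UMIs and folds refer. Etv1, an ETS transcription factor, had 35 UMIs in Fibroblast 2 on day 8 and 106 on day 10 and none in Fibroblast 1, at least 227-fold higher with a limit of 3 counts over these 2 sums of Fibroblast 1. In day 14 replicate 2, however, Fibroblast 1 had 64 UMIs of Etv1 (3.23 CPM). Angpt4, an angiopoietin, had 70 and 326 UMIs in Fibroblast 2 and 1 in Fibroblast 1, and Fap, the protease named fibroblast activation protein, had 82 and 204 and again 1. The ratio of levels was 1381 for Fap, with a 95% counting interval of 246 to 54751. Shox2, a homeobox factor, Ptgs1, a cyclooxygenase, and Col28a1, a collagen, were among them, with 1 to 4 UMIs in Fibroblast 1 against 159 to 417 in Fibroblast 2. Rbfox1, Rab7b, Ltb4r2 and Fam180a were the others of the 10, a choice that passed over 5 gene models without a name. Shox2 had 58 and 44 UMIs in the day 14 sums of Fibroblast 1, and Etv1, Fap, Shox2 and Ltb4r2 had none in the day 27 sum of Fibroblast 2. All 10 genes with the largest decreases had 0 UMIs in Fibroblast 2 on day 8 and day 10. Hist1h2bm, a histone gene, had 549 UMIs over the 2 sums of Fibroblast 1 and was at least 37.9-fold lower in Fibroblast 2. The testis gene Tekt1, a tektin of cilia and flagella, had 379 and was at least 26.2-fold lower, as was Ddx54, an RNA helicase, and the other 7 (Npffr1, Rhoh, Lhx1os, Plekhh1, Ric3, Phyhipl and Ppp1r1b) were at least 23.1-fold to 32.3-fold lower. In the day 27 sum of Fibroblast 2, however, all of the 10 but Hist1h2bm had UMIs. There Tekt1 was at 63.8 CPM, above its 9.07 to 26.1 in the 4 sums of Fibroblast 1, and Rhoh at 26.4, above its 15.1 to 17.7. Npffr1, Lhx1os and Ppp1r1b lay within the range of Fibroblast 1. Plekhh1 was at 22.2, also within its 3.28 to 25.3, and with every sum of at least 5 cells in the fit its log2 fold change turned to 0.012 without day 8 and 0.91 without day 10. That of Tekt1 turned to 0.42 with every sum.

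The matrix programme was higher in Fibroblast 2 almost throughout. Of 11 fibrillar collagen chains 10 could be tested and 8 were called higher, none lower, with a median log2 fold change of 4.14. Col5a2, which regulates the diameter of collagen fibrils, was at 414 and 365 CPM in Fibroblast 2 on day 8 and day 10 and at 15.7 and 13.2 in Fibroblast 1, a log2 fold change of 4.91 ± 0.27 (SE). Col12a1, a collagen that sits on fibrils, was at 92.3 and 50.5 against 4.57 and 10.7 (3.45 ± 0.73). Col2a1, the cartilage collagen, was the exception in direction, at 0.808 and 0 against 9.65 and 14.7, and was not called. Among 22 matrix glycoproteins and proteoglycans 20 were called higher, with a median of 4.71. Sparc, a collagen-binding glycoprotein, reached 1608 and 1531 CPM against 121 and 142, and Dcn, the proteoglycan decorin, 1033 and 669 against 27.1 and 38.3. Fn1, fibronectin, was at 947 and 839 against 84.7 and 92.8. Eln, the elastin gene, stayed low, with 11.3 and 0 against 4.57 and 0.770, and was not called.

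The enzymes that fold, crosslink and cut collagen went with the chains. Of 16 collagen processing enzymes 15 were called higher, led by Pcolce, which enhances procollagen cleavage, at 1121 and 856 CPM against 45.4 and 28.4. The crosslinking enzyme Lox was at 608 and 285 against 21.4 and 28.1. P4hb, a subunit of prolyl hydroxylase that also serves protein folding in general, was the least changed of those called, at 570 and 558 against 392 and 279 (log2 fold change 0.92). Of 11 matrix remodelling genes 10 were called higher, among them the gelatinase Mmp2 at 935 and 733 against 45.4 and 24.0, while Plat, tissue plasminogen activator, at 130 and 52.1 against 56.1 and 55.8, was not. Of 12 basement membrane genes tested 9 were called higher. Col4a2, a chain of network-forming type IV collagen, was at 528 and 575 against 9.71 and 6.60.

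Surface receptors and transcription factors of mesenchyme followed the same pattern. All 18 mesenchymal surface and cytoskeleton genes that were tested were called higher, with a median log2 fold change of 4.17. Vim, the intermediate filament vimentin, was at 577 and 565 CPM against 42.0 and 77.9, and Pdgfra, the receptor alpha for platelet-derived growth factor, at 162 and 163 against 17.6 and 12.6. Of 22 mesenchymal transcription factors 15 were called higher and 1 lower. Prrx1, a homeobox factor of limb and body wall mesenchyme, was at 240 and 157 against 9.09 and 10.99, and Ebf1 at 271 and 169 against 7.75 and 2.53. Foxf1, a forkhead factor of visceral mesenchyme, was the one called lower, at 22.6 and 3.19 in Fibroblast 2 against 75.3 and 50.1 in Fibroblast 1. Foxf1 was at 59.4 in the SSC clusters of the day 10 library too.

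Contractile genes and YAP targets were less uniform. Of 13 contractile genes and targets of the serum response factor 8 were called higher, with a median log2 fold change of 1.91. Cald1, the actin-binding caldesmon, was at 828 and 942 CPM against 23.9 and 73.5, and Tpm1, tropomyosin, at 584 and 437 against 112 and 198. Tagln2 was at 233 and 193 against 205 and 280 and was not called. Of 14 YAP targets 7 were called higher. Cyr61, a matricellular protein whose promoter is shown above, was at 834 and 385 against 22.3 and 7.26, a log2 fold change of 5.61 ± 0.22. Ctgf, the related connective tissue growth factor, was at 150 and 62.8 against 10.3 and 10.99 (3.36 ± 0.57) and at 451 in the day 27 sum of Fibroblast 2. Ajuba was at 13.2 and 2.13 against 35.8 and 26.6 and was not called.

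Ligands that stromal cells send to their neighbours were mostly higher in Fibroblast 2, whereas few germ cell receptors were called in either direction, close to the 15.1% and 15.4% of all genes. Of 18 niche ligands tested 15 were called higher, none lower, with a median log2 fold change of 5.45. Cxcl12, a chemokine that holds stem cells in their niches, was at 374 and 111 CPM against 24.0 and 0.440, but at 11.1 in the day 27 sum of Fibroblast 2, within the 0.440 to 24.0 of Fibroblast 1. Wnt5a was at 142 and 252 against 4.91 and 4.73, Csf1, a growth factor of macrophages, at 88.0 and 214 against 2.45 and 10.1, and the chemokine Ccl2 at 242 and 213 against 5.97 and 1.54. Gdnf, the ligand that SSCs need for self-renewal, had 0 UMIs in both Fibroblast 2 sums. In Fibroblast 1 on day 8 all 20 listed ligands had UMIs, Gdnf among them. Of 11 receptors 2 were called lower, Ret, the signalling receptor for GDNF, at 12.4 and 5.85 against 87.2 and 97.8, and Acvr2b, an activin receptor, at 5.65 and 0 against 26.6 and 23.7. Il6st, the shared receptor subunit for interleukin 6 and leukaemia inhibitory factor, was called higher, at 167 and 192 against 37.0 and 39.6. The remaining 8 receptors were not called. In the day 27 sum of Fibroblast 2, Ret was at 135, above its 87.2 to 99.7 in Fibroblast 1, and Acvr2b at 19.4, within its 17.6 to 26.6.

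**Figure D3:**
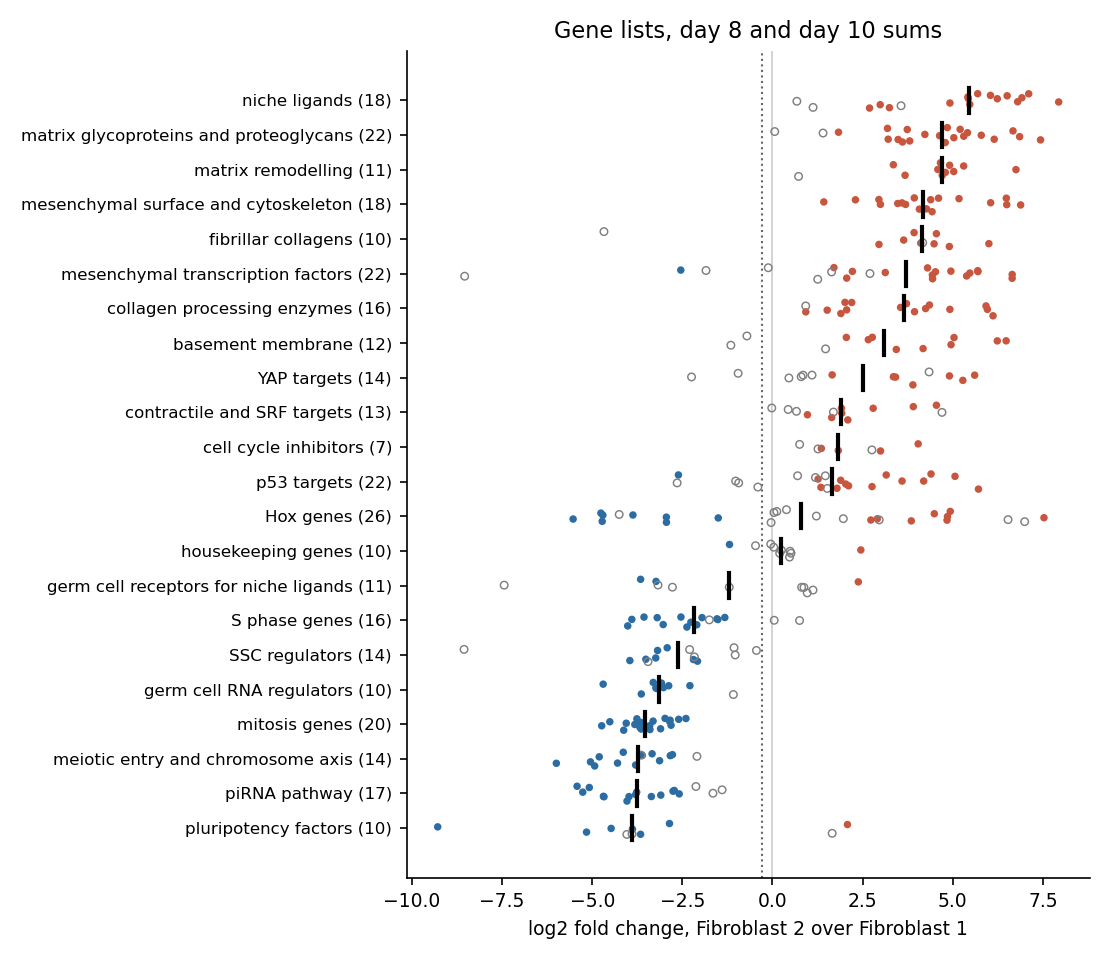
Log2 fold change of Fibroblast 2 over Fibroblast 1 for each tested gene of the lists with at least 7 tested genes (their number in parentheses); filled points were called, open points not, black bars are medians, and the dotted line is the median of all autosomal genes (-0.29). Matrix, mesenchymal and niche ligand lists lie to the right with medians of 3.103 to 5.45, and germ cell, meiotic and mitosis lists to the left with medians of -3.15 to -3.77.

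The germ cell programme was lower in Fibroblast 2. Of 10 germ cell RNA regulators 9 were called lower, with a median log2 fold change of -3.15, and of 17 piRNA pathway genes 14 were called lower, with a median of -3.77. Ddx4 had a log2 fold change of -2.88 ± 0.24 and Dazl of -2.29 ± 0.16, standard errors that leave out a gene's own spread between libraries. By library, Ddx4 was at -2.49 on day 8 and -3.30 on day 10, and Dazl at -1.72 and -2.89. With every sum of at least 5 cells in the fit, the day 27 sum included, and no block, Ddx4 was at -1.41 and no longer called, and the median of the germ cell RNA regulators was -1.39. Leaving out day 10 from that fit moved this median to -0.93. Dazl lost its call in 4 of 11 alternatives, each leaving 1 library other than day 27 out of that fit. Mael, which acts in transposon silencing, was at 92.3 and 39.4 CPM against 537 and 376 (414 in the day 27 sum of Fibroblast 2), and Gtsf1, a piRNA pathway factor, at 81.8 and 8.51 against 354 and 391. Cpeb1, a regulator of cytoplasmic polyadenylation that somatic cells also use, was not called, at 13.7 and 33.5 against 50.5 and 50.9. Of 14 genes of meiotic entry and the chromosome axis tested 12 were called lower, among them Sycp1, of the synaptonemal complex, at 75.1 and 55.8 against 541 and 452. Of 14 SSC regulators tested 7 were called lower and none higher. Epcam, a surface protein of undifferentiated spermatogonia, was at 21.3 and 11.7 against 244 and 332, and Dmrt1, a transcription factor that spermatogonia need, at 53.8 and 5.85 against 207 and 236. In the day 27 sum of Fibroblast 2 the SSC regulators summed to 1167 CPM, within the 1128 to 1341 of Fibroblast 1, and Dmrt1 was at 235, within its 207 to 325. Zbtb16, the SSC factor PLZF, was at 34.996 and 66.5 against 139.9 and 90.1 and was not called.

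Pluripotency factors were mostly lower in Fibroblast 2 on day 8 and day 10. In the day 27 sum of Fibroblast 2, however, the 14 factors of the list summed to 459 CPM, above the 319 to 401 of the Fibroblast 1 sums. Of 10 tested 6 were called lower, such as Sox2 at 0.808 and 0.532 CPM against 18.3 and 48.2. In the day 27 sum of Fibroblast 2, Sox2 was at 39.5, within the range of Fibroblast 1, and with every sum but day 10 in the fit its log2 fold change was 0.0105. With every sum that of Dppa2 was 0.60. Dppa2 had no UMI in Fibroblast 2 on either day and 7.98 and 13.2 CPM in Fibroblast 1, but was at 63.4 in the day 27 sum of Fibroblast 2. Klf4, which fibroblasts and epithelia express as well, was called higher, at 109 and 51.6 against 21.1 and 18.6.

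Each cluster held some of the other's transcripts. The 11 fibrillar collagen genes summed to 255 and 307 CPM in Fibroblast 1 on day 8 and day 10, against 4136 and 3174 in Fibroblast 2 and 129.9 in the SSC clusters of the day 10 library. All 27 germ cell genes had at least 20 UMIs in Fibroblast 1 in each library, and their level in Fibroblast 2 was a median of 11.7% of that in Fibroblast 1 on day 8 (quartiles 5.18% to 18.6%) and 4.81% on day 10 (2.21% to 11.9%). Of 3 lists added to this measure after the data were seen, the 20 mitosis genes gave 14.8% (11.05% to 16.7%) and 3.82% (2.44% to 6.63%), the 16 S phase genes 23.5% (12.3% to 29.9%) and 15.6% (12.5% to 35.5%), and the meiotic genes, 15 and 14 of them past 20 UMIs, 8.02% and 3.80%. The part of free RNA in these levels was not tested.

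Genes of cell division were lower in Fibroblast 2 and inhibitors of the cell cycle higher. All 20 mitosis genes were called lower in Fibroblast 2, with a median log2 fold change of -3.52. Top2a, the topoisomerase that resolves chromosomes before division, was at 71.9 and 51.6 CPM against 488 and 498, and Ccnb1, the mitotic cyclin B1, at 117 and 22.9 against 453 and 416. Of 16 S phase genes 13 were called lower, with a median of -2.18, among them Mcm2 of the replicative helicase at 36.6 and 41.5 against 238 and 267. Of 7 cell cycle inhibitors 4 were called higher and none lower. Cdkn1a, the inhibitor p21, was at 1426 and 1186 against 139 and 237 (log2 fold change 2.998 ± 0.13), and Cdkn2b, the inhibitor p15, at 580 and 568 against 32.4 and 46.6. Cdkn2a was called higher too, at 57.6 and 101 against 24.8 and 22.98, but at 24.7 in the day 27 sum of Fibroblast 2, within the 17.6 to 32.7 of Fibroblast 1.

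Known targets of the tumour suppressor p53, to which Cdkn1a also belongs, were mostly higher. Of 22 tested 13 were called higher and 1 lower, with a median log2 fold change of 1.66. Mdm2, the ligase that degrades p53, was at 534 and 537 CPM against 149 and 142, and Phlda3 at 475 and 483 against 26.9 and 31.6. Xpc, a DNA repair factor that recognises lesions, was the target called lower, at 16.2 and 10.1 against 86.9 and 88.9. Bax, of the apoptotic machinery, was at 606 and 524 against 427 and 351 and was not called.

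Cell by cell, the mitosis genes took a median of 0.0558% of the UMIs in the 28 cells of Fibroblast 2 of day 8 and day 10 and 0.583% in the 96 cells of Fibroblast 1. On day 10 the ranges were 0.0204% to 0.0706% and 0.189% to 1.0001% and did not overlap. On day 8 they were 0.0267% to 0.212% and 0.0765% to 1.05% and overlapped. Over both days, 19 of the 28 cells of Fibroblast 2 lay below the lowest cell of Fibroblast 1. Cdkn1a ran from 30.2 to 3191 CPM in the day 8 cells of Fibroblast 2, with a median of 1564, and from 7.39 to 896 in those of Fibroblast 1, with a median of 117.

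**Figure D4:**
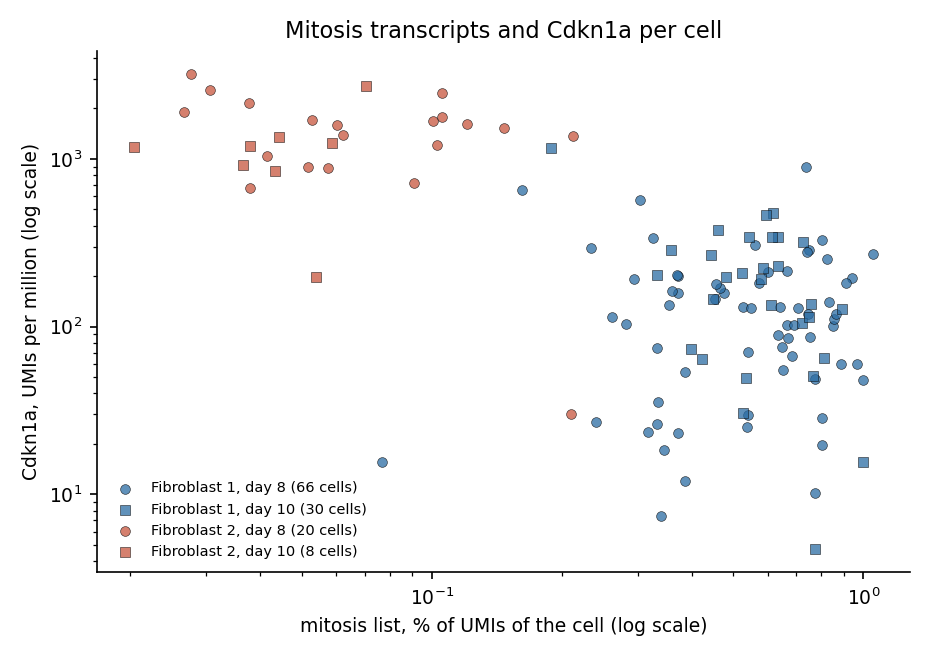
Each point is 1 cell of the day 8 and day 10 libraries, with the percent of its UMIs from the 20 mitosis genes on the horizontal axis and Cdkn1a in CPM on the vertical axis, both on log scales. Red cells of Fibroblast 2 gather at low mitosis shares (median 0.0558%) and high Cdkn1a, blue cells of Fibroblast 1 at a median mitosis share of 0.583%.

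The Hox genes, which give cells their position along the body axis, split by genomic cluster. Of 26 tested 8 were called higher and 8 lower. All 8 called lower belonged to the HoxB cluster, and the 8 called higher to HoxA (3), HoxC (4) and HoxD (1). Hoxb7 was at 35.5 and 83.0 CPM in Fibroblast 2 against 182 and 162 in Fibroblast 1, and Hoxb13 at 2.69 and 1.596 against 60.6 and 68.5. Summed over the 10 HoxB genes the level was 91.5 and 131 against 484 and 623, and in the SSC clusters of the day 10 library 511. Summed over the 9 HoxD genes it was 107 and 29.3 against 1.62 and 1.43, but 1.24 in the day 27 sum of Fibroblast 2, within the 0.267 to 1.62 of the 4 sums of Fibroblast 1. Hoxc8 was at 6.999 and 71.3 against 1.56 and 0.660, but at 8.38 and 5.47 in the day 14 sums of Fibroblast 1 and 0 in the day 27 sum of Fibroblast 2, and with every sum but day 10 in the fit its log2 fold change was -0.20. Hoxc9 was at 12.4 and 98.4 against 4.57 and 5.94, but at 7.97 and 19.2 in the day 14 sums of Fibroblast 1 and 17.7 in the day 27 sum of Fibroblast 2.

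Within Fibroblast 2 the number of cells with a UMI differed between Hox genes and days. Hoxd13 had 103 UMIs in 4 of the 20 day 8 cells, 67 of them in 1 cell, and none in the 8 day 10 cells, and Hoxd11 had 105 UMIs in 6 day 8 cells and none on day 10. Hoxc9 had 46 UMIs in 8 of 20 cells on day 8 and 185 in 7 of 8 on day 10. Hoxb7 was found in 15 of 20 and 7 of 8 cells. The 2 days, each with 1 library, were not tested against each other.

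**Figure D5:**
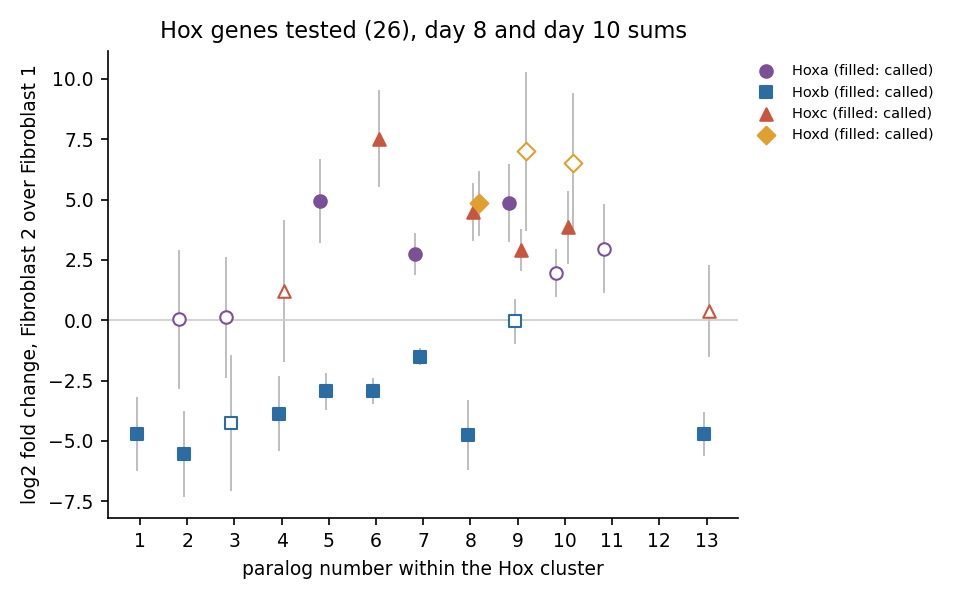
Log2 fold change of Fibroblast 2 over Fibroblast 1, with the standard error as bars, for the 26 Hox genes tested, placed by their number within the cluster; filled points were called. The HoxB squares lie at or below 0 (median -4.06) and the points of the other clusters at or above 0.

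Some markers of other cell types were called, in lists of few tested genes, and their part in the results above was not tested. Of all autosomal genes tested, 15.1% were called higher and 15.4% lower. The 7 Leydig genes summed to 2.69 and 2.13 CPM in Fibroblast 2 against 3.85 and 6.38, most of it Star, which starts steroid synthesis, while Cyp17a1, Insl3 and Hsd3b1 had no UMI in any of the 4 sums. The macrophage list summed to 70.8 and 77.6 CPM in Fibroblast 2 against 28.9 and 46.6, carried mainly by Lyz2 at 54.4 and 68.6, which was not called, with 4 and 7 of its 10 genes at 0 in Fibroblast 2, Csf1r and Adgre1 on both days. On day 8, C1qb was at 5.38 against 0.279 and Ptprc at 3.23 against 0.0558, and on day 10 both had no UMI in Fibroblast 2. Of 5 Sertoli genes tested 1 was called higher, close to the 15.1% of all genes. This was Sox9, which chondrocytes and other mesenchyme also express, at 9.69 and 60.6 against 3.18 and 8.13. The other 4, Wt1, Cldn11, Amhr2 and Aard, had log2 fold changes of -7.30 to -3.47 and were not called, and the list median was -3.50. Of 5 endothelial genes 1 was called lower, close to the 15.4% of all genes. This was Erg, at 9.15 and 1.06 against 42.2 and 30.3, though at 63.0 in the day 27 sum of Fibroblast 2, above its 29.7 to 49.4 in Fibroblast 1. Krt18 was the 1 of 3 epithelial genes called lower, at 0.538 and 0 against 8.37 and 33.7. None of the 3 smooth muscle genes tested and not the 1 skeletal muscle gene was called. Among 4 cartilage, bone and fat genes 2 were called higher, the lipoprotein lipase Lpl at 114 and 366 against 1.73 and 1.21 and the fatty acid carrier Fabp4 at 80.2 and 303 against 2.96 and 3.52, whereas Adipoq had no UMI in Fibroblast 2 on either day. The 12 genes of that list summed to 213 and 689 CPM against 39.9 and 27.8, with 7 and 6 of them at 0 in Fibroblast 2. Of 5 neural and glial genes 2 were called higher, the transcription factors Nr2f1 at 23.2 and 43.6 against 0.502 and 0.110 and Foxp2 at 17.2 and 4.25 against 0.223 and 0, and both had no UMI in the day 27 sum of Fibroblast 2.

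The 10 housekeeping genes had a median log2 fold change of 0.22, and 8 of them were not called. B2m, the light chain of class I histocompatibility molecules, was called higher, at 1611 and 1296 CPM against 288 and 300.2. Tbp, the TATA-binding protein, was called lower, at 55.2 and 31.4 against 121 and 93.6, and is named here after its values were seen, as are Col2a1, Eln, Ajuba, Cpeb1, Hoxd11, Hoxd13, Gdnf, Csf1r, Adgre1 and Adipoq.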

How the data were processed

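Modified STRT-seq UMI counts per gene and cell were used as the authors deposited them, with no normalization, together with the deposited cluster and batch of each cell, which carry no measurement. Per the submitters' processing notes, STAR 2.7.2b aligned reads to mm10 and featureCounts 2.0.0 assigned them to genes. By the study's methods, cells with few genes or a high mitochondrial share had been removed. Doublets were not called here. Counts were summed per library and cluster with at least 5 cells; cells were never replicates. Nothing in the labels says that the day 8 and day 10 libraries came from separate cultures. The cells of both clusters in these libraries carry the same deposited batch, B1. The p-values set the difference between clusters, within these libraries, against a spread shared across genes. They do not measure the spread between cultures. The sums held 1880269 to 17927546 UMIs.

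Genes were tested with edgeR 4.0.16 in R 4.3.3 (TMM, filterByExpr, glmQLFit, glmQLFTest) on the 4 sums of day 8 and day 10. The library was a block because both clusters come from the same library; deviations from the cluster means correlated at 0.0974 within libraries. Standard errors are the log2 fold change divided by the root of the quasi-likelihood F. They hold none of a gene's own spread between the libraries. DESeq2 1.42.0 was an alternative, and the fit was tested on simulated data. Gene positions are those of GENCODE vM21 on GRCm38; X, Y and unplaced genes entered the fit but are not described. The members and the 31 gene lists were chosen with earlier results of these data known. Named are the markers, Col12a1, Col5a2 and Ctgf, the 10 called genes with the largest change in each direction, changed the same way in both libraries and with at least 20 UMIs in each library of the higher cluster, and up to 8 members of each list with the highest levels and any called against the direction of most of its list. Shares per cell were repeated after thinning cells to 50000 UMIs, without the shallower ones. The day 8 and day 10 libraries share 84 barcode numbers. Promoters are RefSeq windows on GRCm38.p6, 1 a gene, the most upstream. Figures used matplotlib.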

Additional observations from a re-analysis of the deposited data

Results flagged for a closer look

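Over the 4 Fibroblast 1 sums of at least 5 cells, 39 quantities were examined for a sample far from the other 3, and 2 stood apart, about as many as chance flags when 1 in 20 does. The summed level of the 16 collagen processing enzymes was 659 CPM on day 10 against 738 to 746 in the other 3 sums. The summed level of the 12 germ cell receptors for niche ligands was 295 in day 14 replicate 4 against 341 to 346. The cause was not tested in either case.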

How the results depend on the processing

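The comparison rests on 2 libraries, 8 to 66 cells per sum and 1 residual degree of freedom. No gene called in the main comparison was called the other way under any alternative. With DESeq2's size factors the counts higher and lower were 1988 and 1799, with the DESeq2 test 2069 and 1864, with no filter on low counts 1760 and 1810, and with autosomal genes alone in the fit 1889 and 1967. Without the block they were 1711 and 1610, and 15 named genes lost their call, of 232 with a value, called or not in the main fit. The stricter threshold left 1038 lower. With every sum of at least 5 cells and no block, 1452 were higher and 580 lower, so 71.5% of calls were higher. There 62 named genes lost their call, of 225 with a value, a number that includes genes not called in the main fit. Leaving out day 8, day 10, day 14 replicate 2, day 14 replicate 4 or day 27 from that fit gave 171, 451, 905, 876 and 2553 higher and 8, 41, 147, 161 and 2911 lower. The median log2 fold change of the fibrillar collagens was 4.04 without the block, 4.36 with DESeq2, 4.04 on day 8 alone and, in the same order of libraries left out but for day 27, 3.94, 3.97, 3.82 and 3.99. That of the germ cell RNA regulators was -1.39 with every sum, -2.72 on day 8 alone and -1.01, -0.93, -1.39, -1.44 and -2.76 with 1 library left out. Col1a1 ranged from 2.84 to 3.70, Col1a2 from 2.96 to 3.99 and Col3a1 from 3.79 to 4.55 and all remained called, while Ddx4 (-2.91 to -1.005) lost its call in 5 of 11 alternatives and Dazl (-2.32 to -1.05) in 4, each of them a fit that held the day 27 sum. Signs turned for the smooth muscle markers (-3.31 with no filter, -1.32 without day 27), the cartilage, bone and fat markers (-2.14 and -1.71), the neural and glial markers (-0.20 without day 8) and the housekeeping genes (-0.028 without day 8). They turned with every sum for Tekt1 (0.42, and 0.94, 0.93, 0.76 and 0.18 without day 8, day 10, day 14 replicate 2 and day 14 replicate 4) and Dppa2 (0.60, and 0.98, 1.13, 0.80 and 0.58 likewise), both present in the day 27 sum. They turned too for Plekhh1 (0.012 without day 8, 0.91 without day 10), Sox2 (0.0105 without day 10) and Hoxc8 (-0.20 without day 10). The cause was not tested. Day 8 and day 10 alone leave 1 sum per cluster and give no test or count.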
